A study of Mus musculus with 9 samples.

Results

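The genes described here are long noncoding RNAs of the nucleus and hosts of small nucleolar RNAs (snoRNAs), in mouse embryonic stem (ES) cells sorted by Myc level. They were taken by name: Malat1 and Neat1, which are retained in the nucleus, and the snoRNA hosts Gas5, Snhg1, Snhg3, Snhg6, Snhg8 and Snhg12. Of the 8 names, 7 were found among the 13499 genes of the deposited table, and all 7 passed the filter on low values, as did every gene of the table. Snhg8 was not among the gene names in the table.

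Malat1 is an abundant RNA that gathers at nuclear speckles, bodies rich in splicing factors. Neat1 is the RNA scaffold of paraspeckles, nuclear bodies built on it by proteins such as Nono and Sfpq. A snoRNA host gene carries snoRNAs in its introns. After splicing, the snoRNA is trimmed from the intron and joins proteins that guide chemical modification or processing of ribosomal RNA, while the spliced exons of many hosts are exported, engage ribosomes and are degraded by nonsense-mediated decay. Gas5 is also known to accumulate when growth stops, and several hosts begin with a run of pyrimidines, the 5′ terminal oligopyrimidine tract of ribosomal protein mRNAs. Myc, on whose level the cells were sorted, drives transcription of many growth genes, among them genes for making ribosomes.

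RNA sequencing was done on C57BL/6 mouse ES cells grown on gelatine in a medium with LIF, the cytokine that keeps such cells pluripotent. A cytometer sorted the cells by the level of GFP-Myc or of EYFP into populations labelled High, Medium and Low C-myc, with 3 libraries each from replicates described as biological. Which of these reporters each sample carried is not labelled, nor is it stated whether polyadenylated RNA was selected from total RNA, which matters for RNAs such as Malat1 whose end is not a standard poly(A) tail. All groups shared strain, medium and substrate. Values below are normalized read counts unless stated, close to CPM in scale, and the libraries held 11114936 to 16755566 reads. Myc itself averaged 26.0, 67.1 and 106 normalized counts in Low, Medium and High, so its order matched the labels. The 8 ES cell markers were all measured, with a summed level of 4562 to 6377, and 3 of them, Zfp42, Tdgf1 and Esrrb, were higher in High than in Low. The other 5 did not pass the limma test, with log2 differences as low as -0.22. By that test 13.8% of all genes were higher and 14.6% lower in High than in Low. Fibroblast markers were scarce (6 of 10 measured, summed level 24.1 to 59.8); of these Thy1 was higher in High. Of 8 trophoblast markers 5 were measured and 4 were lower in High than in Low. The sums of the 5 were 253 to 279 in Low, 164 to 170 in Medium and 110 to 118 in High. Eomes (log2 difference 0.18) did not pass, and Cdx2, Elf5 and Hand1 were not among the names. Of 8 primitive endoderm markers 4 were measured (Gata4, Gata6, Sox17 and Pdgfra were not among the names), with sums of 246 to 255, 396 to 412 and 491 to 510 in the same order; Sparc, Lama1 and Sox7 were higher and Dab2 lower in High than in Low. Their part in the values of the noncoding RNAs was not tested. In such bulk RNA, fewer cells of a type and less RNA per cell cannot be told apart.

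Coordinates and annotation are from GENCODE M21 on GRCm38, which may not be the annotation used to count. Malat1 (ENSMUSG00000092341, chr19:5795690-5802672, minus strand) and Neat1 (ENSMUSG00000092274, chr19:5824708-5845478, minus strand) are neighbours 22036 nt apart. Snhg1 (ENSMUSG00000097188, chr19:8723475-8726443, plus strand) lies on the same chromosome. Gas5 (ENSMUSG00000053332) is at chr1:161034422-161038539 on the plus strand and Snhg6 (ENSMUSG00000098234) at chr1:9941959-9944118 on the minus strand. Snhg3 (ENSMUSG00000085241, chr4:132348014-132353686, minus strand) and Snhg12 (ENSMUSG00000086290, chr4:132308623-132311024, plus strand) are on the same stretch of chromosome 4. The annotation places 10 snoRNA entries inside Gas5, 8 inside Snhg1, 5 inside Snhg12, 2 inside Snhg3 and 1 inside Snhg6, while Malat1 and Neat1 hold none.

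The snoRNAs are shown because they set the hosts apart from Malat1 and Neat1. A C/D snoRNA guides methylation of ribosomal RNA and carries a C box (TGATGA in its strictest form) near its start and a D box (CTGA) near its end, and an H/ACA snoRNA, which mostly guides pseudouridylation, carries ACA just before its end. Capitals mark these letters where they stand in the first 20 bases, the last 16 bases or 3 bases before the end. TGATGA and CTGA were both found in 8 of the 10 entries of Gas5, 5 of the 8 of Snhg1, the entry of Snhg6 and 1 of the 5 of Snhg12; over all 1558 annotated snoRNAs the share was 20%. The ACA was found in both entries of Snhg3 and in 3 of Snhg12 (19.3% of all). The remaining 2 entries of Gas5 and 3 of Snhg1 held the CTGA alone, and 1 of Snhg12 held none of these letters. Snora16a in Snhg12 and Snord80 in Gas5 are each entered more than once at nearly the same place. These entries are therefore not all separate snoRNAs. The sequences are from the GENCODE M21 annotation on GRCm38, written 5′ to 3′.
Snord47 of Gas5, chr1:161038082-161038158, plus strand: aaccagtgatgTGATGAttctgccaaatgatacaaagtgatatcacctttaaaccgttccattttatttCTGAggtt
Snord22 of Snhg1, chr19:8725866-8725991, plus strand: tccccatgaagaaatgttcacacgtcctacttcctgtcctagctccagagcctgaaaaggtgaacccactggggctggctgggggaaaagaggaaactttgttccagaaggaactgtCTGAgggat
Snord87 of Snhg6, chr1:9942463-9942549, minus strand: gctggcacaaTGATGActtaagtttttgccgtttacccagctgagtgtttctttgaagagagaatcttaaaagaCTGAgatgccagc
Snora16a of Snhg12, chr4:132309465-132309600, plus strand: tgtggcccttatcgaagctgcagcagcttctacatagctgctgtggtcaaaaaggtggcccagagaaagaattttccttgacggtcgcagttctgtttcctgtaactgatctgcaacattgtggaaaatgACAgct
Snora73a of Snhg3, chr4:132352775-132352979, minus strand: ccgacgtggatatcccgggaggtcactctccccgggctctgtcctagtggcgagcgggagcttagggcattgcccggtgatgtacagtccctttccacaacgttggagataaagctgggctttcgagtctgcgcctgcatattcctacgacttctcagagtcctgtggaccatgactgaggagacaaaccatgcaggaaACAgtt
Snora73b of Snhg3, chr4:132352322-132352526, minus strand: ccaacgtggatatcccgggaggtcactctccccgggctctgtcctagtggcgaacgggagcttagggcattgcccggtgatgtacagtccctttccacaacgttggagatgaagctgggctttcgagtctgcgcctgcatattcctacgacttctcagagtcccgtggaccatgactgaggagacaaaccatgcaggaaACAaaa
Snora73a and Snora73b are 205 bases each and differ at 7 positions, so reads of 61 nt from either may have been split between them.

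The bases around the annotated starts are shown because the hosts' levels varied together from library to library, as described below. A link between these bases and that pattern was not tested. Windows from RefSeq on GRCm38.p6 were found for 5 of the 7 genes. Each holds 30 bases before the start and 50 from it, and capitals mark the longest run of C and T that touches the 20 bases around the start. RefSeq lists 2 starts for Gas5; the start shown holds a run of 6, and the other has a run of 3 and no CTTTC. A run of at least 6 near the start is found in 29.2% of all windows, of at least 9 (Snhg12 and Snhg1) in 9.55%, of at least 5 (Snhg3) in 44.85% and of at least 4 (Malat1) in 63.9%.
Snhg12, chr4:132308648-132308727, plus strand: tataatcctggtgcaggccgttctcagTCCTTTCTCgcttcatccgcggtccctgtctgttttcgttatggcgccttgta
Gas5, chr1:161035136-161035215, plus strand: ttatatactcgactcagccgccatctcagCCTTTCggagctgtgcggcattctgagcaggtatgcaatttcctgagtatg
Snhg1, chr19:8723457-8723536, plus strand: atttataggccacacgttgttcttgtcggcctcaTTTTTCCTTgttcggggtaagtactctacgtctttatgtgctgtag
Snhg3, chr4:132353637-132353716, minus strand: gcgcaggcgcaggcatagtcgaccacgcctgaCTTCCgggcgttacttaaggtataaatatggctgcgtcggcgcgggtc
Malat1, chr19:5802623-5802702, minus strand: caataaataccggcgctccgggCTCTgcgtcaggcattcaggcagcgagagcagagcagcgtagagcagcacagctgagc
The letters CTTTC, on the strand of the gene, stood within 10 bases of the start in 2 of 6 windows (this Gas5 window and Snhg12), against 2.44% of all 32851 windows. The Myc motif CACGTG, which reads the same on both strands, was in 0 of the 6 windows of 300 bases, against 7.15% of all windows of that length. These matches describe the letters only.

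Malat1 averaged 120 ± 72.9 normalized counts in Low, 156 ± 56.3 in Medium and 176 ± 32.1 in High (mean ± SD, n = 3). Its values in replicates 1 to 3 were 203, 68.9 and 87.6 in Low, 107, 144 and 217 in Medium, and 208, 144 and 178 in High. Low replicates 2 and 3 were the lowest libraries, yet Low replicate 1 stood among the highest, so the populations overlapped. The fitted difference between High and Low was 0.70 on the log2 scale (SE 0.37, 95% interval -0.14 to 1.53, limma adjusted p = 0.192). High was above Low in 3 of 3 same-numbered pairs, as for 32.5% of all genes. The ratio of High to Low was 1.02 in the pair numbered 1, 2.09 in the pair numbered 2 and 2.03 in the pair numbered 3. Without Low replicate 1 the difference was 1.16 and passed the limma test (adjusted p = 0.00479). So did 43.1% of all genes without that library, against 28.4% with all libraries. Of the 9 libraries left out singly, only Low replicate 1 moved Malat1 past the threshold; without Low replicate 2 the difference was 0.38.

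Neat1, by contrast, had its highest mean in Low, with 131 ± 32.1 in Low, 81.1 ± 18.3 in Medium and 95.4 ± 31.9 in High (mean ± SD, n = 3). In replicates 1 to 3 it stood at 167, 108 and 116 in Low, at 62.2, 82.2 and 98.7 in Medium, and at 129, 65.1 and 92.4 in High. Every Medium library lay below every Low library, and High overlapped with both. Medium differed from Low by -0.68 (log2, SE 0.26, 95% interval -1.26 to -0.10), with an unadjusted p of 0.0258 and a limma adjusted p of 0.111. High differed from Low by -0.48 (SE 0.26, adjusted p = 0.198) and was below it in 3 of 3 pairs, as for 31.2% of all genes. The difference between High and Low was -0.28 without Low replicate 1, -0.23 without High replicate 2 and -0.72 without High replicate 1. Neat1 is annotated with 4 transcripts, the longest of 20771 nt and the shortest of 711 nt, and a gene-level count does not say which were present. When library differences that follow transcript length were removed with 20771 nt standing for Neat1, High was below Low by -0.96 (limma adjusted p = 0.00285); with the median annotated length it was -0.48 (adjusted p = 0.167). For Medium against Low the same corrections gave -1.18 (adjusted p = 0.00241) and -0.69 (adjusted p = 0.0831).

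**Figure D1:**
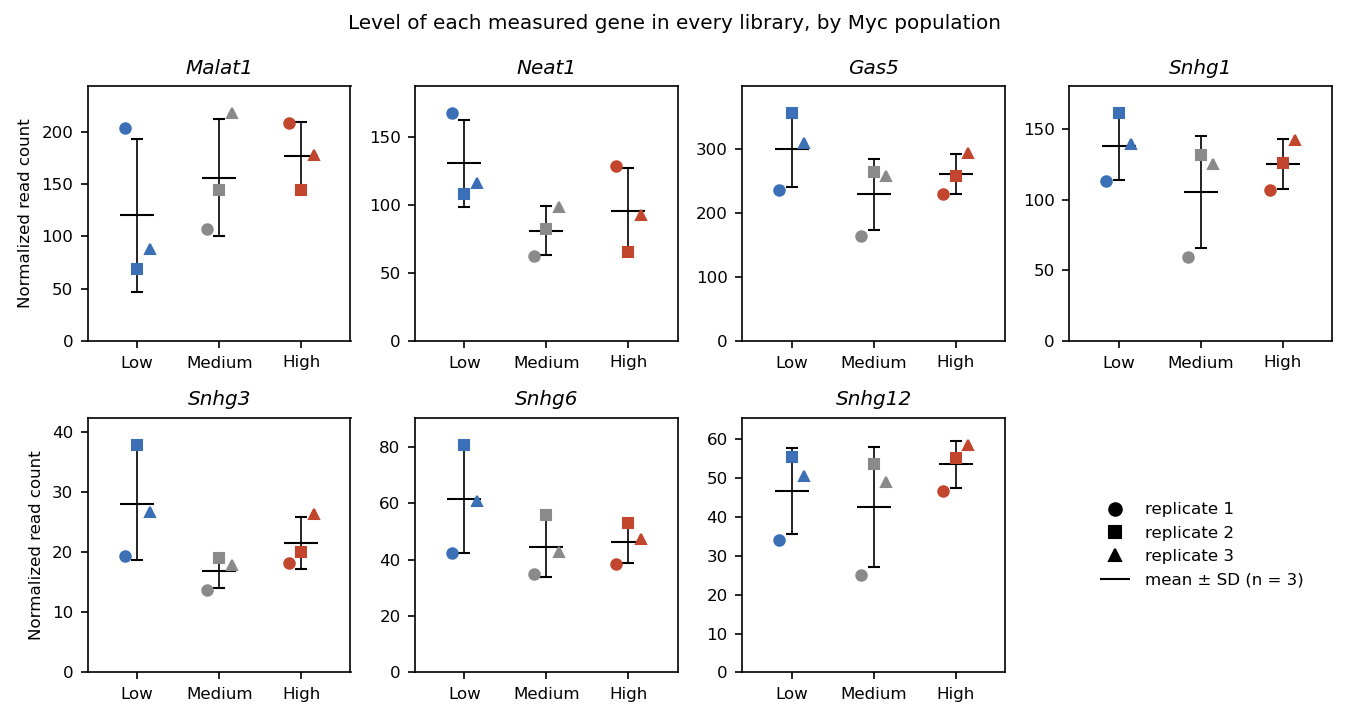
Normalized read count of each measured gene (vertical axes, from 0) in the Low, Medium and High populations; symbols are the 3 replicates and bars are mean ± SD (n = 3). Replicate 1, the circle, is the lowest library in every population for the 5 snoRNA hosts, and in Low it is the highest for Malat1 and Neat1.

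Gas5, the host with the most snoRNAs here, averaged 300.3 ± 60.2 in Low, 229 ± 55.8 in Medium and 260.1 ± 31.5 in High (mean ± SD, n = 3). Replicates 1 to 3 had 236, 355 and 310 normalized counts in Low, 164, 264 and 258 in Medium, and 230, 257 and 293 in High. All 3 populations overlapped, and the library lowest in each was replicate 1. The log2 difference was -0.19 for High against Low (SE 0.20, limma adjusted p = 0.51) and -0.40 for Medium against Low (adjusted p = 0.202), the latter -0.18 without Medium replicate 1.

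Snhg1, a host of C/D snoRNAs, averaged 138 ± 23.9 in Low, 106 ± 39.8 in Medium and 125 ± 17.7 in High (mean ± SD, n = 3). Its levels in replicates 1 to 3 were 114, 161 and 139 in Low, 59.8, 132 and 125 in Medium, and 107, 126 and 143 in High. Medium replicate 1 stood far below the other 8 libraries, which overlapped. High differed from Low by -0.13 (log2, limma adjusted p = 0.75) and Medium from Low by -0.45 (adjusted p = 0.277). Without Medium replicate 1, the value for Medium against Low was -0.09.

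Snhg3 carries both copies of Snora73, an H/ACA snoRNA involved in processing of ribosomal RNA. It averaged 27.9 ± 9.34 in Low, 16.8 ± 2.77 in Medium and 21.5 ± 4.26 in High (mean ± SD, n = 3). Replicates 1 to 3 gave 19.3, 37.8 and 26.7 in Low, 13.7, 18.97 and 17.8 in Medium, and 18.2, 20.1 and 26.3 in High. Every Medium library was below every Low library, by a narrow margin for Low replicate 1. Medium differed from Low by -0.66 (log2, SE 0.23, 95% interval -1.18 to -0.14), with an unadjusted p of 0.0174 and a limma adjusted p of 0.0888. DESeq2 on the recovered reads gave -0.73 with an adjusted p of 0.0352. In this comparison limma called 12% of all genes, and the share called by DESeq2 is not given here. High against Low was -0.33 (limma adjusted p = 0.322).

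Snhg6, the host of Snord87, averaged 61.4 ± 19.2 in Low, 44.6 ± 10.7 in Medium and 46.3 ± 7.34 in High (mean ± SD, n = 3). It had 42.4, 80.8 and 61.0 normalized counts in replicates 1 to 3 of Low, 34.9, 56.0 and 42.9 in Medium, and 38.5, 53.1 and 47.3 in High. Low replicate 1 lay within the range of the other populations, while Low replicates 2 and 3 were the highest of the 9. High was below Low in 3 of 3 same-numbered pairs (as for 31.2% of all genes), by -0.36 (log2, SE 0.24, limma adjusted p = 0.28). With the replicate number as a block the same difference passed the limma test (adjusted p = 0.0136). As tested, 28.4% of all genes passed between High and Low, and the share with the block is not given here. Other lists described below gained calls with the block too. Of 20 proteins that form or assemble snoRNPs, 7 passed with it and 4 without, and of 33 protein-coding hosts 4 and 3.

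Snhg12, a host of H/ACA and C/D snoRNAs, was the only snoRNA host of the 5 with a higher mean in High than in Low, at 46.6 ± 11.1 in Low, 42.5 ± 15.4 in Medium and 53.5 ± 6.10 in High (mean ± SD, n = 3). Replicates 1 to 3 held 34.1, 55.3 and 50.4 in Low, 24.9, 53.7 and 49.0 in Medium, and 46.7, 55.2 and 58.5 in High. The populations overlapped, and replicates 2 and 3 lay close together in all of them. The difference between High and Low was 0.22 (log2, 95% interval -0.39 to 0.83, limma adjusted p = 0.589).

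**Figure D2:**
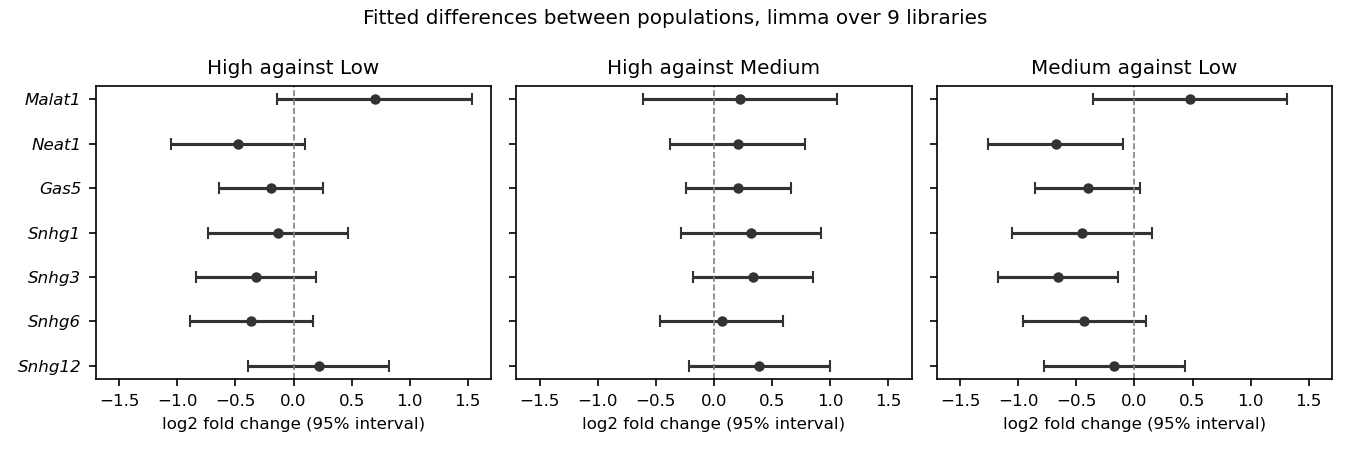
Fitted log2 difference of each gene (points) with its 95% interval (bars) for High against Low, High against Medium and Medium against Low. In Medium against Low the intervals of Neat1 (-1.26 to -0.10) and Snhg3 (-1.18 to -0.14) lie below 0; the other intervals shown reach across 0.

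Between High and Low, 0 of the 7 genes passed the limma test, where 28.4% of all genes did (13.8% higher, 14.6% lower). None of the 7 had an unadjusted p below 0.05 (40.5% of all genes had), and edgeR and DESeq2 on the recovered reads also called 0. High and Low overlapped for all 7, whereas 41.6% of all genes did not overlap (20.2% higher, 21.4% lower). The fitted difference was positive for Malat1 and Snhg12 and negative for the other 5, with a median of -0.19 (all genes 0.00). Between High and Medium, 0 of 7 passed (0.407% of all genes, 0.0815% higher and 0.326% lower), 0 had an unadjusted p below 0.05 (10.9% of all genes), and edgeR and DESeq2 called 0; the 7 differences were all positive, from 0.07 to 0.39, and all 7 overlapped (20.1% of all genes did not, 9.34% higher and 10.8% lower). Without Medium replicate 1, the differences of Malat1, Gas5, Snhg1 and Snhg6 between High and Medium had the opposite sign (-0.09 to -0.01).

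Between Medium and Low, 0 of 7 passed (12% of all genes, 6.14% higher and 5.87% lower) and 2, Neat1 and Snhg3, had an unadjusted p below 0.05, where 31.3% of all genes had. Medium and Low did not overlap for the same 2; without overlap were 29.6% of all genes, 14.5% higher and 15.1% lower in Medium. There edgeR called 0 and DESeq2 called Snhg3. The difference was negative for 6 of the 7, with a median of -0.43 (all genes -0.01). Without Medium replicate 1 it was negative for 5 of 7, with a median of -0.18, and Snhg12 stood at 0.17. Of the 15 same-numbered pairs of the 5 hosts, 15 were lower in Medium than in Low, 12 were lower in High than in Low and 12 were higher in High than in Medium. These hosts vary together, so the 15 are not separate counts, and 26.7% of all genes were lower in Medium than in Low in all 3 pairs. Gas5, Snhg3 and Snhg6 were lower in High than in Low in all 3 pairs, as were 31.2% of all genes. Snhg3 and Snhg12 were higher in High than in Medium in all 3, as were 20.3% of all genes. Medium lay apart from the mean of High and Low for none of the 7 genes (0% of all genes passed); 1 of them, Snhg3, had an unadjusted p below 0.05 (5.67% of all genes), and edgeR and DESeq2 called 0. The differences of Medium against Low and High against Low share the Low libraries, and those against Medium share the Medium libraries.

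How far libraries of the same population lay apart was itself large. The SD within populations was 0.58 (log2) for Malat1, greater than that of 99.0% of the 9039 genes with a mean of at least 10 normalized counts. It was 0.39 for Neat1, 0.30 for Gas5, 0.41 for Snhg1, 0.34 for Snhg3, 0.35 for Snhg6 and 0.41 for Snhg12, against a median of 0.15 over those genes. The highest library exceeded the lowest 3.16-fold for Malat1 and 2.16-fold for Gas5, with the other 5 genes between. The counts behind these values were 211 to 423 reads per library for Snhg3 and 770 to 3405 for Malat1.

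**Figure D3:**
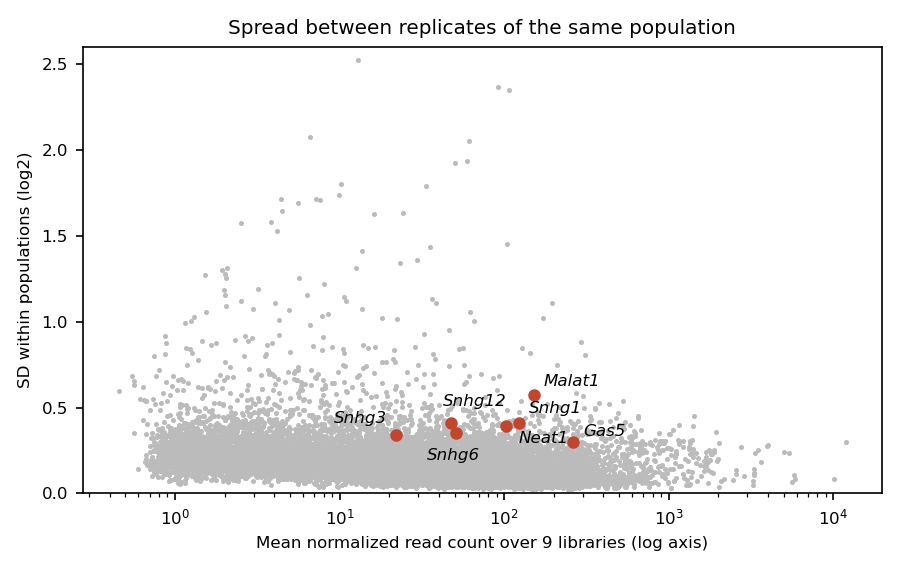
SD of log2 values within populations (vertical axis) against the mean normalized read count over 9 libraries (horizontal log axis) for all 13499 genes (grey) and the 7 measured noncoding RNAs (red). Malat1, at 0.58, lies highest of the 7.

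The levels of the 5 hosts varied together from library to library. Across the 9 libraries, which share depth and preparation within each library, the 10 pairs of hosts correlated at 0.651 to 0.963 (Pearson r of log2 values, median 0.859), the highest being Gas5 with Snhg1. Malat1 correlated with the hosts at -0.68 to -0.02, and Neat1 at 0.05 to 0.36. Once population means were removed, the ranges were -0.593 to 0.035 for Malat1 and -0.476 to 0.104 for Neat1. Between hosts the range was then 0.754 to 0.98. Malat1 and Neat1 correlated at 0.25 over all libraries and at 0.84 once population means were removed. All 5 hosts were lowest in Medium replicate 1, which is the lowest library for 9.27% of the 9039 genes at 10 or more counts. Low replicate 2 was highest for 4 of the 5, as it is for 28.24% of those genes, and High replicate 3 for Snhg12. Replicate 1 was the lowest library of its population in all 3 populations for 5 of 5 hosts, against 16.78% of those genes.

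**Figure D4:**
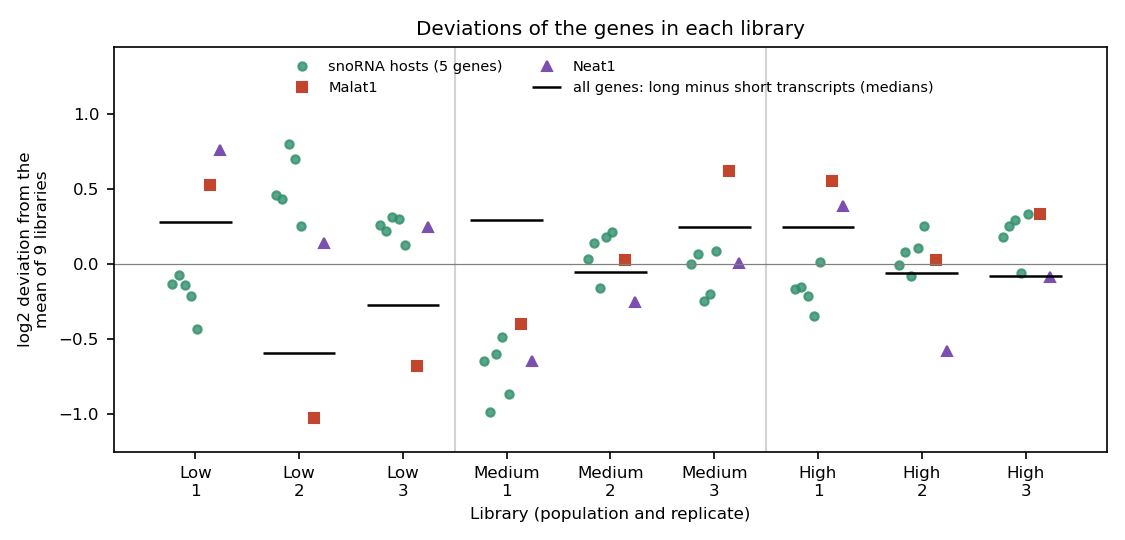
Deviation of each gene in each library from its mean over 9 libraries (log2), for the 5 snoRNA hosts (circles), Malat1 (squares) and Neat1 (triangles). Black bars give, per library, the median deviation of genes with long transcripts minus that of genes with short transcripts. In Low replicate 2 the bar is at -0.59, with the hosts and Neat1 (0.14) above 0 and Malat1 below 0. In Medium replicate 1 the bar is at 0.299, with the hosts, Malat1 (-0.396) and Neat1 (-0.645) all below 0.

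Transcript length moved with the libraries as well. Genes with a longest transcript of at least 4729.5 nt, compared with genes of at most 2100 nt, deviated by 0.28, -0.59 and -0.27 (log2, difference of medians) in Low replicates 1 to 3, by 0.30, -0.05 and 0.25 in Medium, and by 0.25, -0.06 and -0.08 in High. Malat1 is longer than 91.2% and Neat1 than 99.9% of genes, while Snhg3 is longer than 1.6%, Snhg6 than 3.7%, Snhg12 than 14%, Gas5 than 34.3% and Snhg1 than 37.8%. The share of counts from the mitochondrial genome was 2.354% to 3.494% over the libraries. With length removed as above, Malat1, Gas5, Snhg1, Snhg3, Snhg6 and Snhg12 did not pass between High and Low, and between Medium and Low Snhg3 passed (-0.51, limma adjusted p = 0.0258) besides Neat1. The part of transcript length in the hosts' shared pattern was not tested.

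Levels of different genes can be set side by side only per length, here per kb of the longest annotated transcript, which understates genes whose shorter transcripts prevail. On this scale Gas5 led with 117, 89.5 and 102 normalized counts per kb in Low, Medium and High. Snhg6 followed at 75.2, 54.6 and 56.7, Snhg1 at 50.6, 38.7 and 45.9, and Snhg3 at 48.1, 29.0 and 37.0. Snhg12 had 30.3, 27.7 and 34.8, Malat1 17.2, 22.3 and 25.3, and Neat1 6.28, 3.90 and 4.59. Neighbours in this order overlapped over their 3 libraries in Low and Medium, except Malat1 and Neat1, which did not overlap in any population. In High, Gas5 also lay above Snhg6, and Snhg12 above Malat1, without overlap.

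Genes most like each RNA were sought among 9805 named genes by Pearson r over the 9 libraries. Gas5 was closest to Erdr1 (0.980), 1500012F01Rik (0.975), the snoRNA host now named Zfas1, and Sharpin (0.972). Snhg1 was closest to Pnma5 (0.978), the host Snhg7 (0.975) and 1110038B12Rik (0.973). Snhg12 was closest to 1810032O08Rik (0.985), which RefSeq names Snhg16, then Pvt1 (0.972) and Slc39a4 (0.965). Hosts of snoRNAs were thus among the 3 closest genes of Gas5, Snhg1 and Snhg12. Snhg3 was closest to Sharpin (0.970) and Erp29 (0.969), and Snhg6 to Ict1 (0.989), Tmbim4 (0.988) and Tyw5 (0.983). Malat1 was closest to Zfp280b (0.986), Dclre1c (0.983) and Asxl2 (0.967), and Neat1 to 2810403A07Rik (0.945), C2cd2l (0.925) and Fam206a (0.903). The most opposite genes were Npm1, the nucleolar protein nucleophosmin, for Malat1 (-0.991), Eif2s2 for Neat1 (-0.958), Fxr1 for Gas5 (-0.985), Hsp90aa1 for Snhg1 (-0.987), Trim33 for Snhg3 (-0.979), Ubr1 for Snhg6 (-0.991) and Actr2 for Snhg12 (-0.977). With 9 points, high values are found by searching many genes.

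The other snoRNA host noncoding RNAs were taken from a list of 17, of which 9 were matched by name. 1810032O08Rik, now Snhg16, was not matched by the list; it averaged 40.1, 35.1 and 43.9 in Low, Medium and High and did not pass. Of the 9, 0 passed the limma test between High and Low or between Medium and Low (at an unadjusted p below 0.05, 0 and 1; edgeR and DESeq2 called 0 in both). Their medians were -0.14 for High against Low and -0.48 for Medium against Low (all genes 0.00 and -0.01). Snhg4 averaged 41.1, 31.7 and 36.9 in Low, Medium and High, Snhg5 119, 106 and 119, Snhg7 18.0, 12.2 and 13.0, and Dancr 25, 16.6 and 23.5. Snhg11 averaged 32.0, 30.6 and 40.9, Snhg18 1.42, 1.23 and 1.06, Zfas1 126, 84.4 and 100.1, Rian 212, 212 and 236, and Mir17hg, the host of the miR-17 cluster, 49.4, 33.0 and 33.6. Medium replicate 1 was the lowest library for 8 of these 9. Measured snoRNAs were few and low: of the hosts' own, only Snora73a, Snora73b and Snora24 (annotated within Snhg8) were in the table. Snora73b had 57, 74 and 62 reads in Low, 22, 50 and 42 in Medium and 64, 43 and 60 in High, and Snora73a had 6, 1 and 14, then 11, 22 and 25, then 16, 24 and 16. Reads of a host intron or precursor cannot be told apart from those of the snoRNA.

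Counts of protein partners that passed between High and Low are read against 28.4% of all genes. Of 20 proteins that form or assemble snoRNPs, 4 passed between High and Low, all higher in High: Coil, the Cajal body scaffold (0.45, limma adjusted p = 0.00735), Nolc1 (0.35, 0.00955), Shq1 (0.45, 0.0122) and Ruvbl2 (0.33, 0.0131). Of 33 protein-coding hosts 3 passed, all higher: Wdr43 (0.29), Tbrg4 (0.34) and Ncl, or nucleolin (0.33). Median differences were 0.17 for the snoRNP list and -0.08 for the protein-coding hosts (all genes 0.00). Without Low replicate 1, 16 of the 33 protein-coding hosts passed, 5 higher and 11 lower, as did 43.1% of all genes. With the transcript length correction, 8 of the snoRNP list passed, all higher, although Shq1 no longer did. Of the protein-coding hosts, 6 were then higher and 2 lower, and Ncl no longer passed. Under the same correction 19.9% of all genes were higher and 18.1% lower. Of 14 factors of nonsense-mediated decay 3 passed, all higher in High, among them Smg5 (0.56, adjusted p = 0.0112) and Smg8 (0.43); without Low replicate 1 this count was 7. Of 16 paraspeckle proteins, Nono passed (0.24), and of 18 nuclear speckle proteins Acin1 was higher (0.34) and Srsf6 lower (-0.25). With the length correction, 1 of the 16 was higher and 2, Pspc1 and Cpsf6, were lower. Of the 18, 3 were then higher, Son and Srrm2 among them, and 1 lower. A difference between these lists and the RNAs was not tested.

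Among 14 other nuclear and imprinted noncoding RNAs measured, 3 passed between High and Low, all lower in High, where 14.6% of all genes were lower. Beside the same 3, DESeq2 called Kcnq1ot1 higher, and the replicate block called Kcnq1ot1 and Tsix higher. As tested, Kcnq1ot1 differed by 0.67 (limma adjusted p = 0.0551) and Tsix by 0.61 (0.0670). H19, an imprinted RNA, averaged 303 in Low, 110 in Medium and 49.3 in High (log2 difference -2.59, limma adjusted p = 1.12e-06). Tunar, a noncoding RNA of ES cells and neural tissue, averaged 3.38, 1.98 and 1.21 (-0.98), and Ftx, from the X inactivation centre, 14.5, 9.12 and 7.72 (-0.83).

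Rcc1, the chromatin-bound exchange factor of the GTPase Ran, overlaps Snhg3 on the same strand, so reads may be shared between them. Rcc1 had 190, 186 and 199 in Low, 233, 228 and 222 in Medium, and 242, 260 and 249 in High. It rose from Low to High by 0.38 (log2, SE 0.07, limma adjusted p = 0.00299) and to Medium by 0.25 (adjusted p = 0.0444), while Snhg3 was lower on average in both. For High against Low, the log2 difference of Frmd8, 4224 nt from Neat1, was -0.23 (limma adjusted p = 0.0542), and that of Slc3a2, 106 nt from Snhg1 on the opposite strand, was 0.00 (adjusted p = 0.973). Zbtb37 overlaps Gas5 on the opposite strand at 4.29 to 11.1 normalized counts, far below Gas5. Gm17300 overlaps Snhg3 on the opposite strand at 12.4 to 43.7, and Mcmdc2 overlaps Snhg6 likewise; without strand information, reads of such pairs cannot be told apart.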

How the data were processed

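RNA from 9 libraries (3 each of High, Medium and Low) was compared. The authors deposited a normalized signal per gene, close to CPM, for 13499 genes; RSEM 1.17, limma, cutadapt and Picard are the tools listed in the submitters' processing notes. Neither genome build nor annotation or strand setting is given in the sources used here. In each library 100% of deposited signal values were whole multiples of the value of 1 read (within 0.001 read), and 11114936 to 16755566 whole reads were recovered. 85 genes had no name and 10 names had more than 1 identifier.

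Tests used limma 3.58.1 (R 4.3.3, variance trend) on log2(signal + 1 CPM), which understates changes of low genes, over genes at 1 CPM or more in at least 3 libraries. P-values were Benjamini-Hochberg adjusted over all genes, with a threshold of 0.05. Replicate libraries are described as biological. The members and lists were chosen with earlier results of these data known. Named genes were the members, every measured host of the host list, up to 4 genes per other list with the smallest adjusted p for High against Low, the 3 most alike and the most opposite gene per member, neighbours, and Myc; a few genes that this rule names are not reported here. Intervals and counts of reads cover only the spread or counting between these libraries.

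Same-numbered libraries of High and Low deviated together (correlations 0.527, 0.257 and 0.179), above 0.1, so they were treated as paired in a check; High replicate 3 with Low replicate 2 (0.309) and High replicate 2 with Low replicate 3 (0.124) also exceeded it. Alternatives covered pseudocount, filter, scaling, variance model, edgeR 4.0.16 and DESeq2 1.42.0 on recovered reads, replicate block, transcript length and left-out libraries. Those leaving out replicates numbered 1 together, Low and Medium replicate 1 together, or using the median transcript length were chosen after seeing the data. Identifiers matched GENCODE M21 for 13418 genes (99.4%), with Snhg1 matched by symbol. Scripts were tested on simulated data.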

Additional observations from a re-analysis of the deposited data

How the results depend on the processing

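Of the 7 genes, 0 passed in any comparison as tested. Between High and Low, the replicate block gave 1 (Snhg6), length correction 1 (Neat1), both 2, leaving out Low and Medium replicate 1 gave 4, leaving out the 3 libraries numbered 1 gave 3, and leaving out single libraries 0 to 3, the most without Low replicate 1 (Malat1, Snhg3 and Snhg6). Between Medium and Low these were 3 with the block (Gas5, Snhg3 and Snhg6), 2 with length correction, 4 with both, 2 without Low and Medium replicate 1, 4 without the libraries numbered 1, 1 by DESeq2 and 0 to 4 without single libraries. The shares of all genes that passed also moved with the setting, and rose in those given next. For High against Low, the shares with the block alone and without the libraries numbered 1 are not given here. Nor is the share by DESeq2 between Medium and Low, so these member counts have no share to be read against. Without Low replicate 1 the share was 43.1% between High and Low (28.4% as tested) and 37.9% between Medium and Low (12% as tested). With length correction, 19.9% of all genes were higher and 18.1% lower in High than in Low. Between Medium and Low, 19.9% of all genes passed with that correction. No alternative called a member in the other comparisons, and none reversed a called sign. The cause was not tested.

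Of all genes, 3832 passed for High against Low; this was 2495 with a filter of 10 CPM, 5963 without Low and Medium replicate 1, 5981 with block and length correction, and 2266 to 5757 without single libraries. High against Medium gave 55, but 260 by DESeq2, 84 with no trend, 203 with the block, 304 with length correction, 491 with both, 121 with median length, 180 without Low replicates 1 and 2, 28 without the libraries numbered 1, and 11 to 208 without single libraries. Medium against Low gave 1621, but 3656 with the block, 2677 with length correction, 3786 with both, 3805 without Low and Medium replicate 1, 4367 without the libraries numbered 1, and 497 to 5060 without single libraries. Medium against the mean of High and Low gave 0, but 17 by DESeq2, 1 with the block, 2 with length correction, 2 with both, 4 without the libraries numbered 1, and 0 to 70 without single libraries. In High against Medium the calls were 11 higher and 44 lower, but 95 and 165 by DESeq2 and 124 and 180 with length correction. The same-numbered correlations missed 0.1 for High with Medium (-0.044 in the pair numbered 3) and Medium with Low (-0.112), so the block there rests on a number only. With 3 libraries per population, a spread as wide as that of Malat1 leaves intervals wider than 1.5 log2 units.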
